A study of Homo sapiens with 25 samples.

Results

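The genes described here are 10 protein-coding genes of bone morphogenetic protein (BMP) signalling: the ligands BMP2, BMP4 and BMP7, the secreted antagonist NOG, the intracellular inhibitors BAMBI and SMAD6, and the target genes ID1, ID2, ID3 and ID4. They were chosen by name, out of 20037 protein-coding genes in the gene table (GRCh38.p14). No threshold on a measured value was used, but earlier results of these data were known when they were chosen. All cells came from H1, a long-established line of human embryonic stem cells (hESC). The line was compared with 3 stages made from it: definitive endoderm (hDE), then anterior foregut (hAFE), then pharyngeal foregut (hPFE). All groups share the H1 background, carry no named allele, and the sources used here do not give the agents or times of the differentiation. Histone marks were mapped by chromatin immunoprecipitation with sequencing, and 21 peak lists were used: 8 for H3K27ac (2 per stage), 7 for H3K27me3 (2 per stage, 1 for hAFE) and 6 for H3K4me2 (2 each for hESC and hDE, 1 each for hAFE and hPFE). H3K27ac is a mark of active promoters and enhancers, H3K27me3 is the mark of Polycomb repression, and H3K4me2 is found at both active and poised regulatory elements.

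BMPs are secreted dimers that bind paired type I and type II serine/threonine kinase receptors, which phosphorylate SMAD1, SMAD5 and SMAD9. These SMADs join SMAD4, enter the nucleus and bind GC-rich SMAD sites, and the ID genes are among their best known direct targets. NOG binds the ligands outside the cell, BAMBI is a pseudoreceptor without a kinase domain, and SMAD6 is an inhibitory SMAD, so the last pair are feedback inhibitors that the pathway itself induces. In the embryo BMP signals act in the formation of mesoderm and endoderm and in the patterning of the foregut, and ID proteins hold basic helix-loop-helix factors inactive.

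Each list held 24871 to 111256 peaks for H3K27ac, 23457 to 76441 for H3K27me3 and 87357 to 116210 for H3K4me2. The shortest H3K27ac list was that of hAFE replicate 2, and the shortest H3K27me3 list was the single one of hAFE. Per the labels, the hESC libraries of H3K27ac and H3K27me3 were re-analysed from an earlier deposit, so for those marks stage and batch cannot be told apart where hESC is one side of the comparison. The word millipore stands in the names of 3 H3K27me3 lists (the first replicate at each stage but hAFE), and its part in the results was not tested. In bulk chromatin, fewer cells with a mark and less of the mark per cell cannot be told apart. H3K27ac lay at the ends of 5 of 5 hESC markers in hESC, and of 3, 1 and 2 of them in hDE, hAFE and hPFE. It lay at 5 of 5 definitive endoderm markers in hDE (0 of 5 at the other stages). Of 4 anterior foregut markers it lay at 4 in hAFE, and at 1, 2 and 3 in hESC, hDE and hPFE. Of 5 pharyngeal markers only ISL1 carried H3K27ac in both hPFE libraries, and PAX1 and TBX1 carried H3K27me3 there, so the label of hPFE was not borne out by most of its defining markers. H3K27ac also lay on the mesoderm markers KDR and TBX6 (2 of 5 genes) in hESC and hDE, and on TBX6 in hPFE. In hDE it lay on the hepatic marker ALB (1 of 3) and on 1 of 5 neural markers. The part of other cell types in the results was not tested.

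RefSeq promoter entries (GRCh38.p14) were found for 7 of the 10 genes: BMP4, with 3 annotated starts, and BAMBI, SMAD6, ID1, ID2, ID3 and ID4 with 1 each. The 250 bases before the start of the 4 ID genes and of BAMBI are shown because the peaks described below lie over or beside them. They are written 5′ to 3′ on the gene's strand. Capitals mark matches to the GC-rich SMAD site GGCGCC, the SMAD box GTCTG, the motif TATAAA and the CCAAT box, each on either strand.
ID1, chr20:31605039-31605288, plus strand: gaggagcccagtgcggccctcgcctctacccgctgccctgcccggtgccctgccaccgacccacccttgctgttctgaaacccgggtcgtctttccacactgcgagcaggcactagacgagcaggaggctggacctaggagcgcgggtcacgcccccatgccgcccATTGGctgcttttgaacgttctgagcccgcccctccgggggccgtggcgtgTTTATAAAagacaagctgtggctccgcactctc
ID2, chr2:8681806-8682055, plus strand: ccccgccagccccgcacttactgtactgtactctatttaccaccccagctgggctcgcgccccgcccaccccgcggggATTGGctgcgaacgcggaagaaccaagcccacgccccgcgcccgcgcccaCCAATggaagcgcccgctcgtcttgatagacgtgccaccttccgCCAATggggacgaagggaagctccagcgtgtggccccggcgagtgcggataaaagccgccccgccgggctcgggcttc
ID3, chr1:23559502-23559751, minus strand: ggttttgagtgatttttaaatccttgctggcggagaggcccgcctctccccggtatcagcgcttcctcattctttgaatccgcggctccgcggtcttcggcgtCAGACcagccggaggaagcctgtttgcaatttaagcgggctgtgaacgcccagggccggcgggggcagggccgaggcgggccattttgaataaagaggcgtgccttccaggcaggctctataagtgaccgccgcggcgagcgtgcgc
ID4, chr6:19837120-19837369, plus strand: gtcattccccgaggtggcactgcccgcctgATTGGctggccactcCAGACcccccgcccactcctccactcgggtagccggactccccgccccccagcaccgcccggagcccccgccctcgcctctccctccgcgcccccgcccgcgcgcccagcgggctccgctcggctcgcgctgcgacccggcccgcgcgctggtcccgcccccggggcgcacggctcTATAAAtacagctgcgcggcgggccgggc
BAMBI, chr10:28677271-28677520, plus strand: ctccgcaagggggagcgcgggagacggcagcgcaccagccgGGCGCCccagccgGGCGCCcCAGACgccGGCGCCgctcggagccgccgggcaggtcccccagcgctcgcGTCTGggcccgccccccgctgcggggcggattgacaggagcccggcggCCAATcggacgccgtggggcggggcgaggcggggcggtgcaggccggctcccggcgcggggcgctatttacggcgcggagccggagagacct

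In the 300-base windows (250 before and 50 after the start) BAMBI held 3 matches to the GC-rich SMAD site and 2 to the SMAD box. Among 35116 RefSeq promoter windows of that length, 19.2% held the first and 45.3% the second. ID1 held 2 overlapping TATAAA matches, on opposite strands, and ID4 held 1, a motif found in 11.5% of windows. ID2 held 3 CCAAT matches, and BAMBI, SMAD6, ID1 and ID4 held 1 each, against 34.6% of windows with at least 1. ID3 and ID4 held 1 SMAD box each. The 9 windows of these genes had a median GC content of 68.0% and a median CpG ratio of 0.943 (observed over expected), against 58.7% and 0.579 over all windows. These matches are letters in a window and say nothing of a factor's binding.

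A gene was called marked at a stage where every library of the stage had at least 1 bp of a merged peak no farther than 1 kb from an annotated end of the gene, unmarked where no library had, and mixed otherwise. Fold values are the authors' own fold enrichment of a peak over the input of its stage and describe a peak within its list. H3K4me2 marked all 10 genes at all 4 stages, against 72.3%, 68.0%, 70.2% and 70.1% of protein-coding genes in hESC, hDE, hAFE and hPFE. H3K27ac was called at 3 of the 10 genes in the hESC stage (42.9% of all genes), at 6 in hDE (54.0%), at 7 in hAFE (34.2%) and at 8 in hPFE (50.2%). H3K27me3 was called at 7 genes in the stem cells (19.2% of all), then at 3 in hDE (13.4%), at 1 in the single hAFE library (15.5%) and at 3 in hPFE (12.7%). More of the genes thus carried H3K27me3 than H3K27ac in the stem cells, and the reverse held in the foregut, while H3K4me2 was called throughout. When only peaks reaching −log10 p 5 were kept, H3K27ac was called at 4 genes in hAFE and H3K27me3 at 1 in hPFE. The 3 genes with H3K27ac in hESC were ID1, ID2 and ID3, and in hESC the 4 secreted factors BMP2, BMP4, BMP7 and NOG carried H3K4me2 with H3K27me3 and no H3K27ac, a state of 13.2% of all genes. Both H3K27ac and H3K27me3 were called at ID2 in hESC, BMP7 in hDE and NOG in hPFE (2.78%, 2.17% and 1.21% of all genes), and at none of the 10 in hAFE (0.804%). H3K4me2 with H3K27me3 was called at 7, 3, 1 and 3 genes along the series (18.5%, 11.6%, 13.2% and 10.3%), and H3K4me2 without H3K27me3 at 3, 4, 9 and 6 genes (47.6%, 51.4%, 57.0% and 54.5%).

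Changes between stages were few. H3K27ac was gained from hESC to hDE at BMP2 and BMP7 (2 of 5 that could, 14.6% of all genes), and lost at none (2.76%). Neither gain was called with the whole gene as the window, and that of BMP2 was not called with a 2.5 kb window. From hDE to hAFE it was gained at ID4 (1 of 2, 1.16%) and lost at BMP2 (1 of 6, 12.5%). From hAFE to hPFE it was gained at NOG (1 of 2, 7.71%) and lost at none (0.539%). Between the ends of the series it was gained at BMP7, NOG and ID4 (3 of 5, 11.4%) and lost at none (3.81%). H3K27me3 was lost from hESC to hDE at BMP2, BAMBI, SMAD6 and ID2 (4 of 7, 22.2%) and gained at none (0.868%). From hDE to the hAFE library it was lost at BMP4 and NOG (2 of 3, 15.3%) and gained at none (2.74%), and from there to hPFE it was gained at BMP2, BMP4 and NOG (3 of 9, 1.78%) and lost at none (16.1%). That hAFE list was the shortest of the mark, with 23457 peaks. The loss at BMP4 was not called with a 500 bp window or a 200 bp overlap, and that at NOG was not called with a 2.5 kb window. The hPFE calls at BMP2 and NOG rest on weak peaks and were lost when only peaks reaching −log10 p 5 were kept. The gain at BMP4 was called under that filter. With a 200 bp overlap none of the 3 gains was called. Between the ends it was lost at BAMBI, SMAD6 and ID2 (3 of 7, 32.4%) and gained at none (1.55%). H3K4me2 was gained or lost at none of the 10, where the shares of all genes were 1.87% and 2.82% from hESC to hDE, 8.11% and 3.23% from hDE to hAFE, 11.7% and 5.10% from hAFE to hPFE, and 6.51% and 6.18% between the ends.

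**Figure D1:**
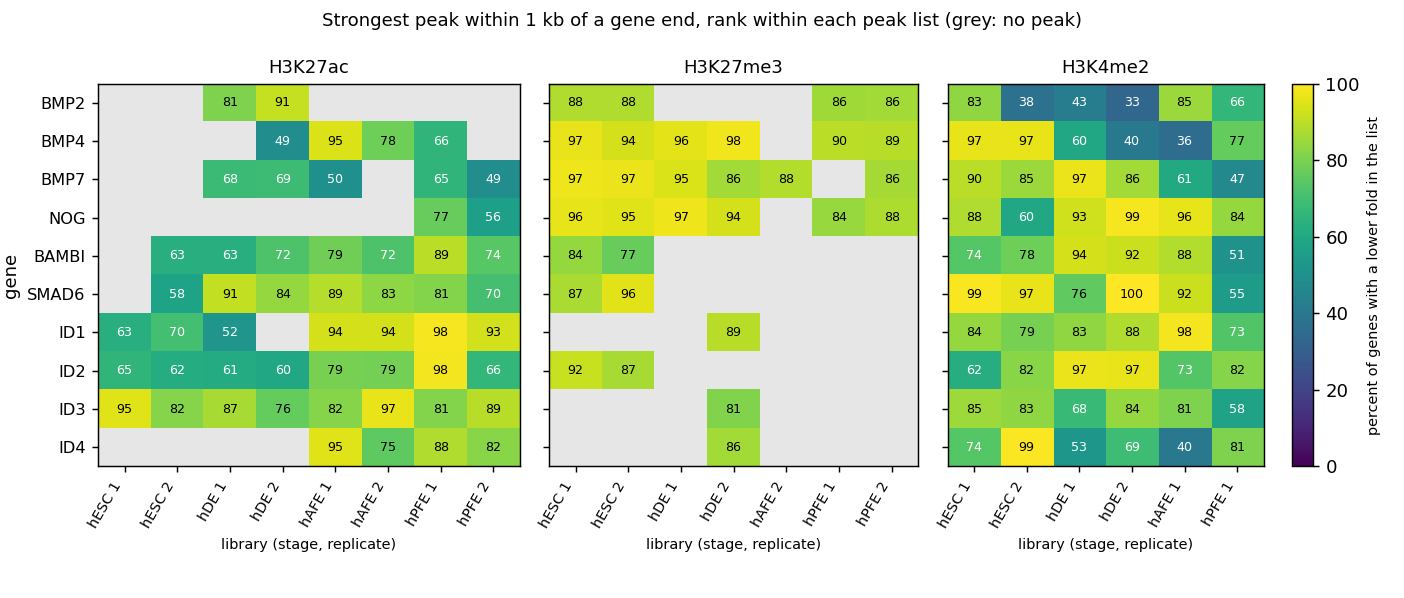
Rank of the strongest peak within 1 kb of an end of each gene (rows) in each of the 21 libraries (columns), as the percent of protein-coding genes with a lower fold in the same list, with grey where no peak was called. H3K27ac is present at ID1, ID2 and ID3 in both hESC libraries, at BMP2 in hDE alone and at ID4 in hAFE and hPFE alone, while H3K27me3 is called in hESC at all genes but ID1, ID3 and ID4.

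BMP2, a ligand used in mesendoderm and heart formation, had its H3K27ac in hDE. The strongest peak at its end had a fold of 8.15 in hDE replicate 1 and 12.7 in replicate 2, a width of 3361 and 3362 bp, and no peak was called there in the 6 other libraries. With the whole gene as the window BMP2 was mixed in hESC and in hAFE, so neither the gain nor the loss was called. With a 2.5 kb window it was marked in hESC, and the gain was not called. The gene, on chromosome 20 from 6767686 to 6780246, has no other protein-coding gene within 100 kb. H3K27ac peaks covered 28.3 and 30.2 kb of the gene with 100 kb either side in the 2 hDE libraries. They covered 1.46 and 0.320 kb in hESC, 0.282 and 0 kb in hAFE, and 0.470 and 1.67 kb in hPFE. The hDE values do not overlap with any other stage, and as a share of the locus (13.3% and 14.2%) they were above those of 99.4% and 99.5% of all genes in the same lists. With the same number of peaks taken from each library the shares were 9.44% and 8.68%, above 99.5% and 99.2% of genes.

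The hDE peaks of BMP2 lay in clusters on both sides of the gene. Of its 54 distal H3K27ac regions (over 1 kb from every gene end), 20 were called in both hDE libraries and in no other library. That count was above the one of 99.7% of genes, whose median was 1. Such counts of distal regions were not adjusted for the length of a locus or for nearby gene ends. These 20 regions spanned 21.2 kb, with 4 on the lower coordinate side, 1 in the gene and 15 on the higher side, and folds from 2.45 to 11.7. The strongest, chr20:6710542-6712620, lay 55.1 kb from the gene with folds of 11.7 and 9.61. Beside it chr20:6708261-6710406 had folds of 11.6 and 14.0 in hDE and kept weak peaks of 3.65 and 3.77 in hPFE. It is the only distal BMP2 region present in both hPFE libraries and absent from hESC. H3K4me2 was called in both hDE libraries over 4 of the 20 regions, in 1 library over 4 and in neither over 12. H3K27me3 was not called at the gene's ends in hDE. Its folds there were 4.57 and 6.13 in hESC, none was called in hAFE, and weak peaks of 2.62 and 3.13 were called in hPFE. The hPFE peaks were 130 and 189 bp wide, and neither passed a −log10 p of 5.

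**Figure D2:**
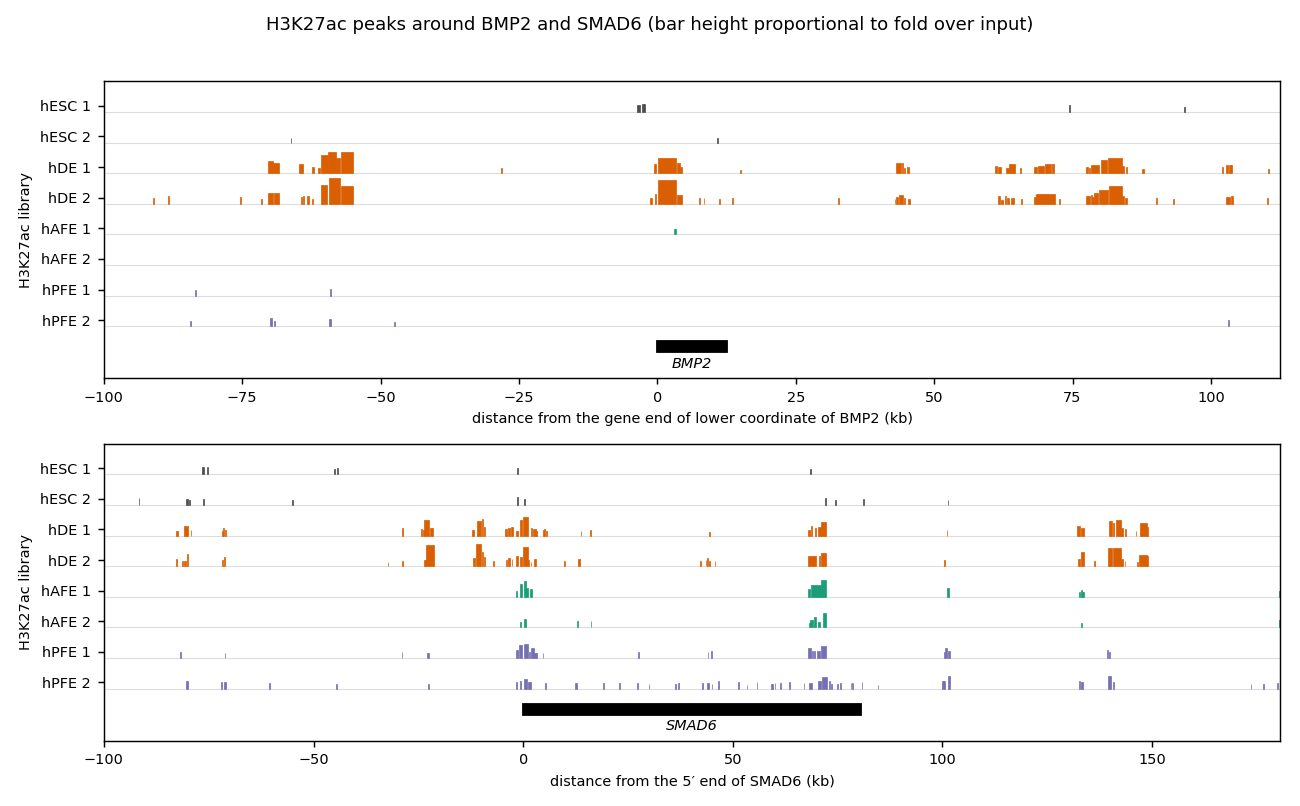
H3K27ac peaks in the 8 libraries (rows, coloured by stage) around BMP2 and SMAD6, by distance in kb from the gene end of lower coordinate of BMP2 and from the 5′ end of SMAD6, with the gene as a black bar and bar heights proportional to the fold over input. BMP2 has dense peaks in hDE alone, and SMAD6 has most in hDE (22.7 and 22.3 kb covered), with peaks at its 5′ end in hAFE and hPFE too.

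BMP4, the ligand best known from mesoderm and ventral foregut patterning, was marked with H3K27ac in hAFE. Its strongest end peaks had folds of 10.1 and 3.96 in the hAFE libraries, 3.76 in hDE replicate 2 and 5.32 in hPFE replicate 1. No peak was called at its ends in hESC, hDE replicate 1 or hPFE replicate 2. The call depends on where the gene is taken to start. BMP4 has 3 annotated starts on the minus strand of chromosome 14, at 53955050, 53954488 and 53953395, all inside the gene (53949736 to 53956891). Over the window of the start at 53954488, H3K27ac peaks with folds of 4.19 and 2.94 were called in hDE, 10.1 and 6.23 in hAFE, and 4.59 in hPFE replicate 1. With the whole gene as the window BMP4 was marked in hDE, hAFE and hPFE. The merged region chr14:53953626-53956816 held peaks in all 6 libraries of these stages (folds of 6.91 and 7.82, 10.1 and 6.23, and 5.32 and 2.57) and in neither hESC library.

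H3K27me3 at BMP4 was called in both hESC libraries over 5 regions in the gene or up to 4.81 kb from it, and over fewer afterwards. It covered 12.0 and 15.7 kb of the locus in hESC, 3.78 and 6.12 kb in hDE, 0.962 kb in hAFE and 0.784 and 1.54 kb in hPFE. Both hESC values were above every other library. At the gene's ends the folds were 9.81 and 10.4 in hESC, 5.83 and 9.12 in hDE, and 3.28 and 3.95 in hPFE, and no peak was called in the hAFE library. Over the start window at 53954488, H3K27me3 was called in both hESC libraries and in none of the other 5, whereas over the start at 53955050 it was called in all libraries but hAFE. In hDE the starts of BMP4 thus differed in their marks: the window at 53955050 lay wholly within H3K27me3 peaks in both libraries (with H3K27ac over 97 of its bases in replicate 2), and those at 53954488 and 53953395 were partly covered by H3K27ac and held no H3K27me3.

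BMP7, a ligand of epithelia and of the developing kidney and eye, is the longest of these genes (97.9 kb, chr20:57168753-57266641). Its end peaks of H3K27ac had folds of 6.13 and 7.21 in hDE, 2.63 in hAFE replicate 1, and 5.25 and 2.98 in hPFE. No peak was called in hESC or in hAFE replicate 2, so that BMP7 was gained in hDE and in hPFE against hESC. The hPFE call was mixed among peaks that reach −log10 p 5 and with equal list lengths, and with the whole gene as the window BMP7 was marked in hESC as well. The H3K27me3 folds were 10.9 and 15.3 in hESC, 5.25 and 3.80 in hDE, 4.18 in hAFE and 3.23 in hPFE replicate 2. BMP7 was the only one of the 10 genes with H3K27me3 in the hAFE library, and in hDE it carried both marks. Of its distal H3K27ac regions, 7 were present in both hPFE libraries and absent from hESC, a count above that of 97.0% of genes. The strongest, chr20:57262224-57264351 within the gene, had folds of 4.95 and 3.54 in hDE, 4.14 in hAFE replicate 1 and 6.26 and 3.51 in hPFE, and carried H3K27me3 in both hESC libraries. The BMP7 locus was 298 kb long, and its covered shares of H3K27ac in hPFE were above those of 85.2% and 55.7% of genes.

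NOG (chr17:56593699-56595611), which encodes the secreted antagonist noggin, had little H3K27ac. Peaks covered at most 0.160 kb of the locus in any library of hESC, hDE or hAFE, and 2.16 and 0.285 kb in hPFE. The end peaks in hPFE had folds of 6.69 and 3.72, and the gain from hAFE to hPFE compares with 7.71% of genes. The peak of hPFE replicate 2 was 145 bp wide, and the gain was absent with an overlap of 200 bp and with equal list lengths. H3K4me2 was called at the ends of NOG in all 6 libraries, with folds from 7.56 to 10.4, and H3K27me3 in 6 of 7. The end folds of H3K27me3 were 9.56 and 12.2 in hESC, 6.65 and 6.48 in hDE, and 2.22 and 3.55 in hPFE, and no end peak was called in hAFE. In the locus it covered 5.30 and 8.07 kb in hESC, 11.0 and 14.2 kb in hDE, 2.99 kb in hAFE, and 2.39 and 3.60 kb in hPFE. The hDE values were above every other library, a pattern of 3.82% of genes, and came from 27 and 56 flanking peaks against 8 and 10 in hESC. This order was lost under the filter on −log10 p and with equal list lengths, and the H3K27me3 call in hPFE was lost under that filter. With equal lengths the shares of the locus were 2.41% and 3.55% in hESC and 4.83% and 3.04% in hDE. Among the 65 distal H3K27me3 regions of NOG, 8 were called in both hDE libraries alone, with folds from 2.73 to 4.75, and chr17:56676352-56679326, 80.7 kb away, was called in all 7 libraries.

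**Figure D3:**
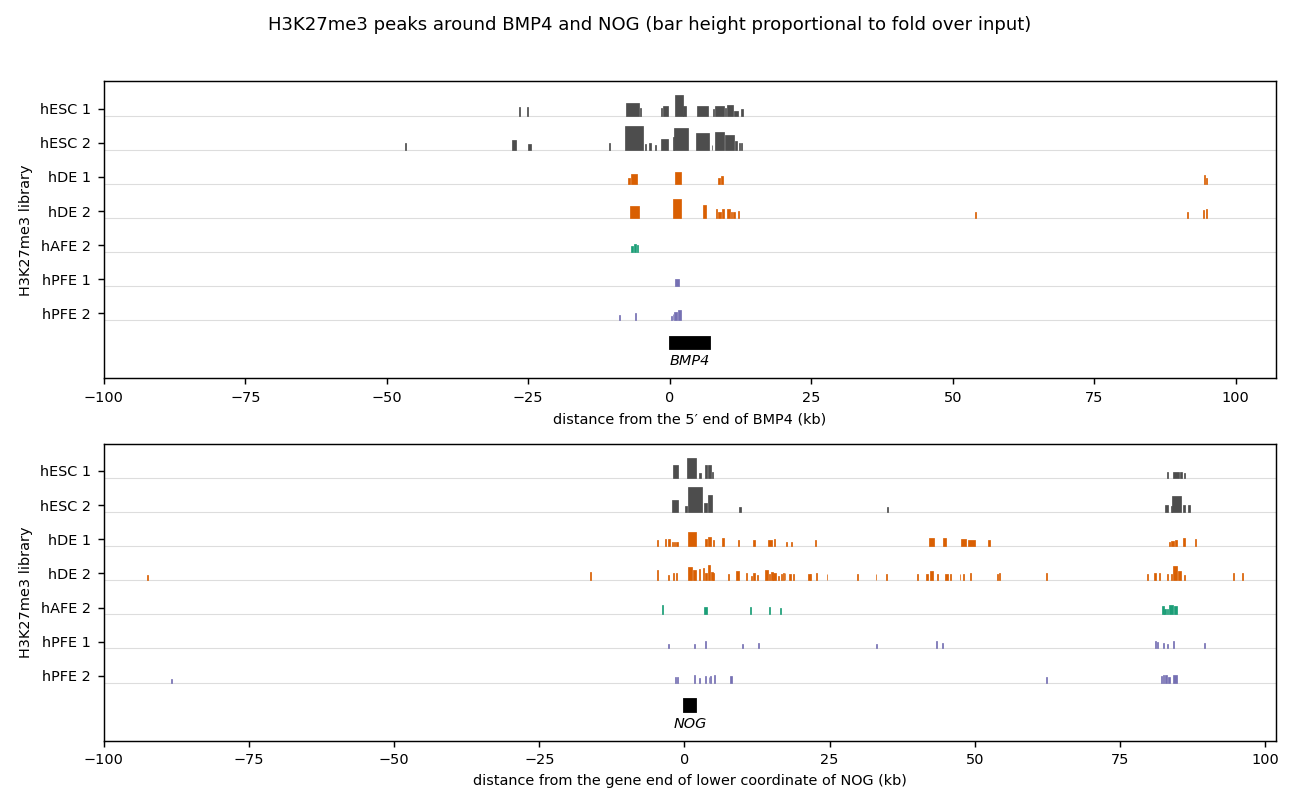
H3K27me3 peaks in the 7 libraries (rows, coloured by stage) around BMP4 and NOG, by distance in kb from the 5′ end of BMP4 and from the gene end of lower coordinate of NOG, with bar heights proportional to the fold over input. Peaks at BMP4 are broad in hESC and few in hAFE and hPFE, and those of NOG extend over the higher coordinate side in hDE.

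The intracellular inhibitors BAMBI (chr10:28677521-28682932) and SMAD6 (chr15:66702236-66782849) had the same calls at their ends, with differing folds. BAMBI had H3K27ac folds of 3.82 in hESC replicate 2, 5.51 and 7.88 in hDE, 6.63 and 3.43 in hAFE, and 8.95 and 5.85 in hPFE. SMAD6 had 3.35 in hESC replicate 2, 10.4 and 10.5 in hDE, 8.38 and 4.43 in hAFE, and 7.45 and 5.34 in hPFE. Each was without an end peak only in hESC replicate 1, was mixed in hESC and was marked at every later stage. The hESC peaks were 177 and 172 bp wide. At the gene ends H3K27me3 was called at BAMBI with 3.59 and 2.95 and at SMAD6 with 4.39 and 12.9 in hESC, and in no library of a later stage. Both were therefore lost from hESC to hDE, against 22.2% of genes, although neither was called with a 500 bp window, and that of SMAD6 was not called with the whole gene. The loss at BAMBI was also not called under the filters on −log10 p and on −log10 q, with equal list lengths, with a 200 bp overlap or with a 2.5 kb window. Away from its ends BAMBI kept H3K27me3 in hDE, with folds of 4.05 and 5.44 at 8.84 and 7.46 kb before the gene. H3K27me3 covered 1.45% and 1.91% of the BAMBI locus in hESC and 1.52% and 2.25% in hDE. At SMAD6 it covered 1.56% and 2.76% in hESC and 0% and 0.234% in hDE.

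SMAD6 differed from BAMBI in the surroundings of the gene, which has no other protein-coding gene within 100 kb. H3K27ac covered 1.71 and 2.15 kb of its locus in hESC, 22.7 and 22.3 kb in hDE, 7.51 and 4.33 kb in hAFE and 10.4 and 15.0 kb in hPFE. The hDE libraries were above all others and the hESC libraries below all others. The shares in hDE (8.08% and 7.95%) were above those of 96.4% and 95.6% of genes. BAMBI reached 0.443 and 0.337 kb in hESC, 5.95 and 3.44 kb in hDE, 5.54 and 2.58 kb in hAFE and 5.03 and 3.29 kb in hPFE, values that overlap among the last 3 stages. SMAD6 had 14 distal regions called in both hDE libraries alone, more than 98.8% of genes, against 1 such region at BAMBI. The strongest, chr15:66691087-66692225, lay 10.0 kb from the gene with folds of 7.85 and 12.1. A further region, chr15:66678659-66681022, had 8.39 and 11.8 in hDE and 2.75 and 2.44 in hPFE.

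ID3 (chr1:23557926-23559501), ID2 (chr2:8682056-8684461) and ID1 (chr20:31605289-31606510) carried H3K27ac in both hESC libraries, and ID2 and ID3 in every later library too. ID1 was mixed in hDE, and unmarked there with equal list lengths or a 200 bp overlap. ID3 had end folds of 8.03 and 5.54 in hESC, 9.45 and 8.66 in hDE, 7.10 and 6.99 in hAFE, and 7.45 and 9.59 in hPFE. ID2 had 3.88 and 3.73 in hESC, 5.21 and 5.77 in hDE, 6.71 and 4.05 in hAFE, and 13.4 and 4.78 in hPFE. ID1 had 3.62 and 4.40 in hESC, 3.85 in hDE replicate 1 and no peak in hDE replicate 2, 9.73 and 6.05 in hAFE, and 13.5 and 12.0 in hPFE. The call for ID3 was the same under each alternative setting tried (filters, windows, overlap and equal lengths). Its 300-base promoter window, which adds 50 bases after the start to those printed, was overlapped by an H3K27ac peak in all 8 libraries. The overlap was partial, from 34 bases (hAFE replicate 2) to 116 (hAFE replicate 1). The 300-base window of ID1 was overlapped in 6 libraries, all but those of hDE. The overlap was 37 and 7 bases in hESC, 38 and 4 in hAFE, and 115 and 123 in hPFE. H3K27me3 was called over none of the 300-base windows of the 5 genes shown in any of the 7 libraries. It was called within 1 kb of the ends of ID2 in hESC (6.07 and 5.59) and was lost in hDE. At ID1 (4.64), ID3 (2.63) and ID4 (3.80) it was called in hDE replicate 2 alone.

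ID1 ranked lowest in hDE and higher in all 4 foregut libraries than in hESC. Its end peak was above those of 62.7% and 70.0% of genes in hESC, 52.0% in hDE replicate 1, 93.6% and 93.7% in hAFE and 98.5% and 93.1% in hPFE. A region just before its start, chr20:31604402-31605160, had folds of 9.73 and 6.05 in hAFE and 13.5 and 12.0 in hPFE and was called in no hESC or hDE library. H3K27ac covered 6.83 and 6.68 kb of the ID1 locus in hESC, 5.63 and 6.79 kb in hDE, 12.4 and 5.81 kb in hAFE, and 20.3 and 17.1 kb in hPFE. The hPFE values are the highest of the 8 and as shares (10.1% and 8.49%) were above 99.5% and 99.6% of genes. This locus also holds BCL2L1, COX4I2, HM13 and MCTS2. Of its distal regions 10 were present in both hPFE libraries and absent from hESC, more than in 99.0% of genes, and the strongest was chr20:31677571-31680095, 71.1 kb away (6.82 and 4.20 in hPFE). Shares in ID1, ID2, ID3 and NOG were higher in hPFE than in every other library, but none of the 4 remained so with equal list lengths.

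ID4 (chr6:19837370-19842197) was the target gene with H3K27ac at its ends in the foregut stages alone. Its end peaks of H3K27ac had folds of 10.4 and 3.69 in hAFE and 8.65 and 7.31 in hPFE, and none was called in the 4 libraries of hESC and hDE. The gain from hDE to hAFE compares with 1.16% of the genes that could change. Under a filter that keeps peaks from −log10 p 5 up, or one from −log10 q 2 up, ID4 was mixed in hAFE and still marked in hPFE, since the end peak of hAFE replicate 2 was weak. H3K27ac covered 0.262 and 0.238 kb of its locus in hESC, 1.73 and 1.99 kb in hDE, 7.70 and 3.14 kb in hAFE, and 6.96 and 5.50 kb in hPFE. All 4 foregut libraries were above all 4 others. In the locus, which has no other protein-coding gene, 3 distal regions were called in every hAFE and hPFE library and in no hESC library, a count above that of 99.1% of genes. One of them, chr6:19803028-19804711, lay 32.7 kb from the gene with folds of 4.20 and 3.53 in hDE, 10.9 and 8.27 in hAFE, and 8.38 and 6.09 in hPFE. It carried H3K4me2 at all 4 stages and H3K27me3 in hESC alone, there as peaks of 115 to 175 bp below −log10 p 5. H3K27ac was thus present there in hDE, where none was called at the gene's ends. An adjoining region, chr6:19804913-19805662, had stronger H3K27ac folds in hDE (8.63 and 6.66). It was also called in both hPFE libraries, in hAFE replicate 1 and, at 2.86, in hESC replicate 1. This stretch was therefore not free of H3K27ac peaks in hESC. Another of the 3 distal regions, chr6:19851064-19851938, 8.87 kb away, was called in hAFE (6.98 and 3.01) and hPFE (4.12 and 2.86) only. The last of the 3 lay inside the ID4 gene.

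**Figure D4:**
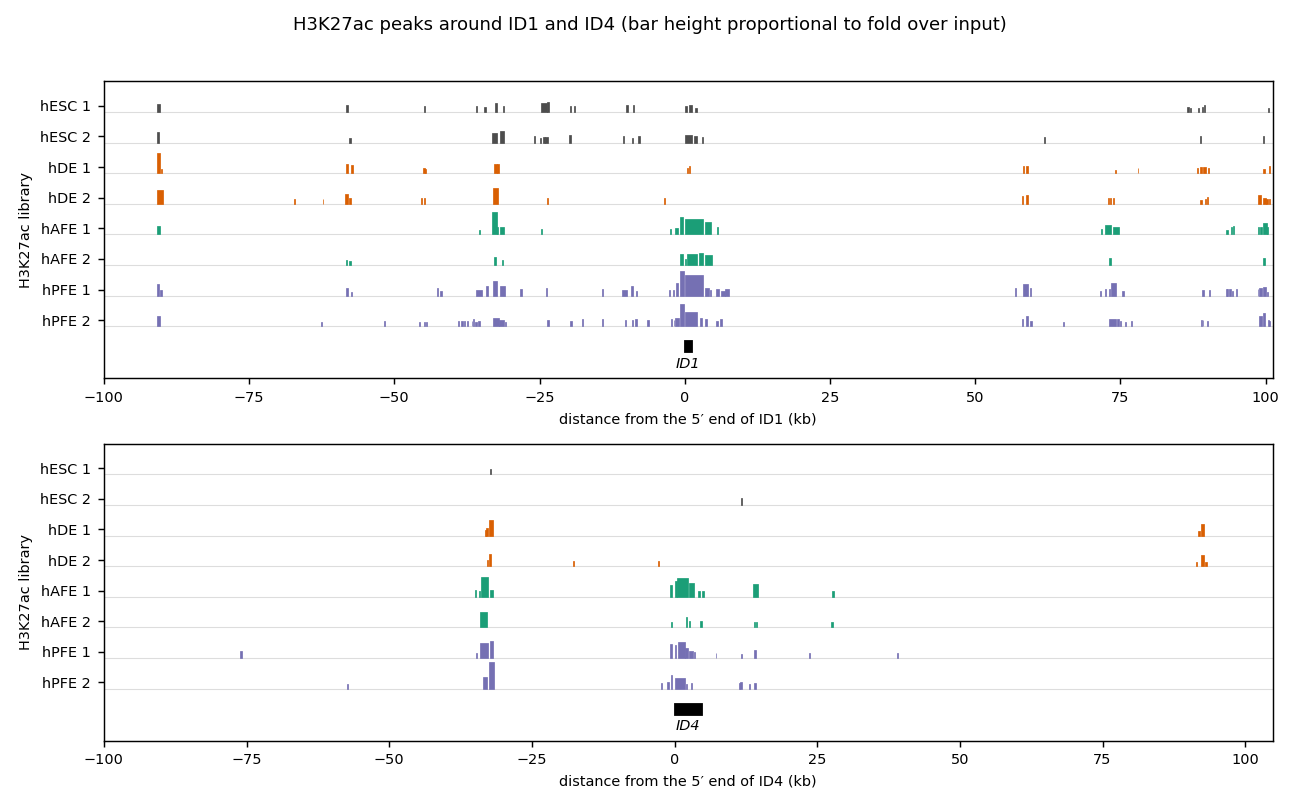
H3K27ac peaks in the 8 libraries (rows, coloured by stage) around ID1 and ID4, by distance in kb from the 5′ end of each gene, with the gene as a black bar and bar heights proportional to the fold over input. ID1 has a region just before its start that is called in hAFE and hPFE and not in hESC or hDE, and ID4 has a region 32.7 kb upstream in hDE, a stage with no peak at the gene's ends.

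Other distal regions, the strongest of their gene in each stage pattern, were as follows. For BMP4 chr14:53998510-53999166 had 3.71 and 5.44 in hPFE and 2.31 in hAFE replicate 1. For ID2 chr2:8635949-8637611 had 5.36 and 3.07 in hAFE and 6.56 and 3.34 in hPFE. For ID3 chr1:23562662-23565305, 3.16 kb from the gene, had 3.29 and 2.94 in hDE, 6.31 and 6.18 in hAFE and 5.25 and 4.18 in hPFE. None of these regions was called in hESC. The reverse pattern, present in both hESC libraries and absent from hPFE, was seen in 4 regions over the 10 genes: chr20:57323256-57323863 near BMP7 (2.71 and 4.90), chr10:28592728-28593694 near BAMBI (3.32 and 3.12), chr15:66625682-66626153 near SMAD6 (4.20 and 3.35) and chr2:8642640-8642925 near ID2 (4.09 and 3.25). The first pair were also called in both hDE libraries. Regions called in both hDE libraries alone also lay near BMP7 (chr20:57149829-57150476, 2.14 and 4.84), BAMBI (chr10:28592219-28592663, 3.68 and 3.25), ID3 (chr1:23613175-23613827, 3.83 and 3.47) and ID4 (chr6:19929610-19930224, 6.44 and 6.12). Summed over the 10 loci there were 399 distal H3K27ac regions, of which 40 were hDE only (20 near BMP2 and 14 near SMAD6), and 317 were called in 1 of the 2 libraries of some stage. Over all 298045 distal regions 7.87% were hDE only, so the share over the 10 loci is near the background.

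**Figure D5:**
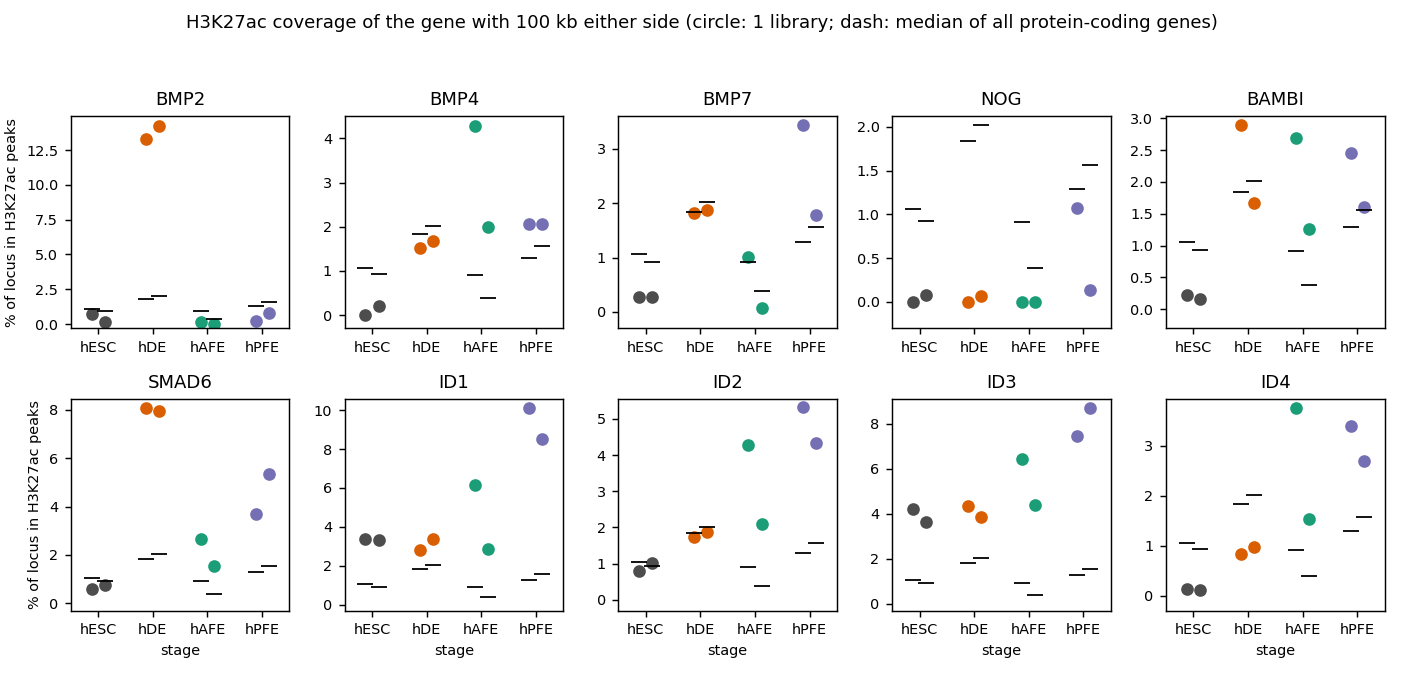
Percent of each gene with 100 kb either side covered by H3K27ac peaks, with a circle for each of the 2 libraries of a stage and a dash for the median of all protein-coding genes in the same list. BMP2 and SMAD6 are highest in hDE, ID1, ID2 and ID3 in hPFE, and ID4 is above its hESC and hDE values in all hAFE and hPFE libraries.

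Read across the 10 loci, the covered share of H3K27ac in hDE was above all 6 other libraries at BMP2 and SMAD6, a count of 2 of 10 beside 42.1% of all genes. With equal list lengths it was again BMP2 and SMAD6, beside 28.8%. The hPFE libraries were above the rest at 4 of 10 (NOG, ID1, ID2 and ID3, beside 11.5%). The hESC libraries were below the rest at 5 of 10 (BMP4, BAMBI, SMAD6, ID2 and ID4, beside 5.43%), with batch and stage not separable. That background depends on single libraries: it was 25.2% without hAFE replicate 2 (6 of 10 loci), 10.2% without hESC replicate 1 (6 of 10) and 11.1% with equal list lengths (4 of 10). For H3K27me3 the hESC libraries were above the rest at 5 of 10 (BMP2, BMP4, BMP7, SMAD6 and ID2, beside 17.2%). The count was 7 of 10 without hESC replicate 1 (beside 49.3%), under the −log10 p filter (23.2%) and with equal list lengths (24.4%). Stage and batch were not separable here either. For H3K4me2, whose end folds at ID4 were 8.36 and 13.9 in hESC, 5.11 and 6.62 in hDE, 3.89 in hAFE and 7.22 in hPFE, the hESC libraries were above the rest at 7 of 10 loci, beside 60.4% of all genes.

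Whether peak positions differed by stage was tested per locus as the mean Jaccard index (shared over combined covered length) of libraries of the same stage minus that of libraries of different stages. The one-sided exact permutation test used all partitions of the libraries into stages, with Benjamini-Hochberg adjustment over all genes that had a peak in every library. For H3K27ac 12099 of 15375 genes passed (78.7%), and all 7 of these genes that could be tested passed (adjusted p of 0.0198 to 0.0388, exact permutation). No gene passed without hDE replicate 1, without hDE replicate 2 or without hAFE replicate 2, and 7076, 6377 and 5925 passed without hESC replicate 1, hESC replicate 2 and hPFE replicate 2. BMP2, BMP4 and NOG had a library without any peak and were not tested. The difference was largest at ID3 (0.575 within and 0.280 between stages), above 98.9% of genes, and it was 0.350 against 0.123 at SMAD6 and 0.264 against 0.103 at ID4. For H3K27me3 no gene of 8842 passed, since the smallest adjusted p was 0.0946, and 3334 (37.7%) had an unadjusted exact p of 0.05 or less. Among them were the 4 of these genes tested, BMP4, BMP7, NOG and ID2, with exact permutation p of 0.00952, 0.0381, 0.0190 and 0.0286. For H3K4me2 11574 of 18974 genes passed (61.0%), among them BMP4, BMP7, SMAD6, ID2, ID3 and ID4 (adjusted p = 0.0364 each, exact permutation), whereas BMP2, NOG, BAMBI and ID1 did not (adjusted p = 0.0590 each, exact permutation). Without any 1 of the 6 H3K4me2 libraries no gene could pass, as the smallest exact p was then 0.0667 or 0.1. At ID4 the H3K4me2 index was 0.611 within and 0.318 between stages, above 98.4% of genes. The labels do not say whether libraries were separate cultures, so the spread behind these p-values is the one among these libraries, which may be technical.

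The likeness of 2 genes was described by Pearson's r of their ranks over the 21 lists, which share libraries and depths, so no p is given. The lists pool the 3 marks, and a gene without a peak was given the lowest rank. A high r can thus reflect differences between marks as well as between stages. BAMBI and SMAD6 had r = 0.963 and each was among the 3 genes most like the other. Among the 10 genes the next pairs were BAMBI with ID2 (0.893), ID1 with ID3 (0.857), ID2 with SMAD6 (0.847) and ID1 with ID4 (0.816). The lowest was BMP2 with ID1 (-0.42). Over all protein-coding genes outside the 100 kb window, the most alike were GNAL for BMP2 (0.966), RNF157 for BMP4 (0.814), RIPK4 for BMP7 (0.915), IMPDH1 for NOG (0.902), SCCPDH for BAMBI (0.971) and MERTK for SMAD6 (0.976). For the targets they were DBP for ID1 (0.906), SLC49A4 for ID2 (0.963), CBX5 for ID3 (0.988) and EFNB2 for ID4 (0.946).

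The wider pathway was described by a list of 49 genes, 39 of them beyond the 10. From hESC to hDE H3K27ac was gained at 5 of the 23 further genes that could (14.6% of all genes). They included the transducer SMAD1, the secreted antagonists CER1 and NBL1, and the target TBX3. None of 15 lost H3K27ac (2.76% of all genes). From hDE to hAFE it was lost at 4 of 21 (12.5%), among them the extracellular antagonists or modulators CER1, TWSG1 and NBL1. None of 18 gained it (1.16%). From hAFE to hPFE SMAD9 and TWSG1 gained it (2 of 19, 7.71%) and none of 10 lost it (0.539%). From hESC to hPFE 6 of 23 gained it (BMP5, BMPR1B, SMAD1, SMAD9, SOSTDC1 and TBX3, beside 11.4%) and the BMP co-receptor gene RGMA lost it (1 of 15, 3.81%). By role, H3K27ac marked 7, 7, 4 and 7 of 8 receptor and co-receptor genes in hESC, hDE, hAFE and hPFE, and 1, 5, 0 and 4 of 11 extracellular antagonists and modulators. The shares of all genes were 42.9%, 54.0%, 34.2% and 50.2%. In hAFE ACVR1, RGMA and RGMB had end peaks in replicate 1 (folds of 6.13, 3.74 and 6.55) and none in replicate 2, the shortest list. H3K27me3 marked 10, 4, 4 and 6 of the 11 extracellular genes and 0 of the 4 transducing SMADs at every stage. The shares of all genes for that mark were 19.2%, 13.4%, 15.5% and 12.7%. H3K27me3 was gained from hESC to hDE at none of 16 of the further genes (0.868% of all genes).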

How the data were processed

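The authors' narrowPeak files hold the peaks of each library, called with that stage's input as control at a p-value threshold of 0.01 with a cap of 500 K peaks, per the deposited file names. Per the submitters' processing notes the build was hg38. No source used here gives the aligner or the peak caller. Each deposited peak has an integer score (not used), a fold enrichment (ratio over input), a −log10 p and a −log10 q, used only within a list. Read counts were not used here, so depth is unknown and a missing peak does not show a missing mark. Overlapping peaks of a library were merged on chromosomes 1 to 22, X and Y, and intersected with protein-coding genes of RefSeq (GRCh38.p14) in Python 3.11.15 with NumPy 2.4.6. The overlap test and the calls were tested on simulated peaks. The 10 genes, the pathway and marker lists, the motifs and the naming rule for distal regions (per gene, the region with the highest fold in each stage pattern) were chosen with earlier results of these data known. Covered shares, the BMP4 starts and the counts of distal regions over all genes were added after the data were seen. Alternatives were filters on −log10 p and q, equal list lengths, windows, overlap, flank and leaving out each library. The inputs entered only as the authors' controls. Some genes of the pathway and marker lists are not reported here.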

Additional observations from a re-analysis of the deposited data

How the results depend on the processing

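Under the alternatives run, no Jaccard difference (same stage minus different stages) of the genes tested changed sign. Counts of genes cannot change sign, but which genes they held did change. For H3K27ac the count of marked genes in hESC (3) became 5 with a window of 2.5 kb or the whole gene, and that in hAFE (7) became 4 under the filters on −log10 p or q. The gains from hESC to hDE (2, BMP2 and BMP7) became 1 with the whole gene, which was BMP4 in place of both, and with the 2.5 kb window BMP4 took the place of BMP2. The losses there (0) became 1 with equal list lengths or a 200 bp overlap. From hDE to hAFE the gains (1) became 0 under either filter, 3 with equal lengths and 2 with the 200 bp overlap, and the losses (1) became 2 under either filter, equal lengths, the 500 bp window or the 200 bp overlap and 0 with the whole gene. From hAFE to hPFE the gains (1) became 0 with equal lengths and 2 with the 500 bp window. From hESC to hPFE the losses (0) became 1 with the 2.5 kb window. For H3K27me3 the marked genes became 4 in hESC (500 bp), 2 in hAFE (2.5 kb), and 1 in hPFE (either filter, equal lengths, 500 bp) or 0 (200 bp overlap). Its losses became 2 from hESC to hDE (500 bp), 1 from hDE to hAFE (500 bp, 2.5 kb, 200 bp overlap), 1 from hAFE to hPFE (either filter, equal lengths, 200 bp overlap), and 5 (−log10 p) or 1 (500 bp) from hESC to hPFE. Its gains from hAFE to hPFE (3) became 1 (either filter, equal lengths, 500 bp) or 0 (200 bp overlap). For H3K4me2 the 500 bp window gave 1 loss from hDE to hAFE and 1 gain from hAFE to hPFE. The cause of these moves was not tested.

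Leaving out each library in turn gave 3 to 5 genes marked with H3K27ac in hESC. The H3K27ac gains were 2 to 4 from hESC to hDE, 1 to 2 from hDE to hAFE, 1 to 2 from hAFE to hPFE and 3 to 5 from hESC to hPFE, and the losses were 0 to 1, 1 to 2 and 0 to 1 over the 3 successive steps. For H3K27me3 it gave 3 to 6 genes marked in hDE, 0 to 3 gains from hESC to hDE, 2 to 5 losses from hDE to hAFE and 0 to 1 from hAFE to hPFE. The test of peak positions called 0 to 12363 genes for H3K27ac and 0 to 0 for H3K4me2 when a library was left out. For H3K27ac it called 6905 under the −log10 p filter, 5736 with equal lengths, 7752 with 50 kb either side and 6590 with distal peaks alone. For H3K4me2 it called 0 under that filter. Chosen after seeing the data, the covered shares gave 0 genes highest in hPFE for H3K27ac with equal lengths, and 1 to 3 genes highest in hDE for H3K27me3 without 1 library. Under the −log10 p filter or with equal lengths, the gene highest in hDE for H3K27me3 was ID1 in place of NOG.

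With the replicate number as a block (replicate block), 0 genes passed for H3K27ac, H3K27me3 or H3K4me2, with smallest p-values of 0.0417, 0.0417 and 0.0833 by exact permutation. Correlations of same-numbered deviations ran from -0.158 to 0.128 over 6 stage pairs for H3K27ac and from 0.0648 to 0.257 over 3 for H3K27me3, and 1 pair gave 0.190 for H3K4me2. Not every pair of a mark with 3 or more was over 0.1, so the numbers were not taken as pairs. Read depth is unknown here, so a peak that was not called may have been missed. Levels of single genes were not tested between stages, and 2 libraries a stage would make such a test weak.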
